A study of Homo sapiens with 3 samples.

Results

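The genes described here are the 4 factors of the MyoD family (MYOD1, MYOG, MYF5 and MYF6), 3 of the MEF2 family (MEF2A, MEF2C and MEF2D), PAX3, PAX7 and FOXO1, read by every probe set that names only one of them. These are 18 probe sets for 10 genes, of 19064 gene probe sets that name 1 gene. They were measured in RH30, an established cell line of alveolar rhabdomyosarcoma, a childhood tumour of muscle-like cells. All cells were grown in RPMI medium with foetal bovine serum. They received an anti-MYCN PNA at 10 µM, a mutated PNA at 10 µM that the study describes as inactive, or nothing, and RNA was taken at 12 hours. A PNA, or peptide nucleic acid, is a synthetic analogue of DNA whose bases hang on a peptide-like chain, and this one was directed against the MYCN gene. There was 1 array per condition, 3 in all, from a single cell line, so values carry no replicate error and differences between single arrays could not be tested.

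The MyoD family are basic helix-loop-helix (bHLH) transcription factors that bind E-boxes as dimers with E proteins and switch on muscle genes, MYOD1 and MYF5 early and MYOG and MYF6 later in differentiation. MEF2 proteins are MADS-box factors that act with them. In alveolar rhabdomyosarcoma a translocation commonly joins the DNA-binding part of PAX3 to the transactivating part of FOXO1, and RH30 is known to carry this PAX3-FOXO1 fusion. PAX7 is its relative and the other usual fusion partner of FOXO1. A probe set in the part of PAX3 or FOXO1 that the fusion keeps reads both the fusion and the wild-type transcript, and a probe set in the part it loses reads only the wild type. Where the probes lie was not used here, so fusion and wild-type transcripts cannot be told apart in these values. Because RNA of whole cultures was measured, a lower signal from fewer expressing cells cannot be told apart from less RNA per cell.

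MYCN itself read 3313 untreated, 2804 with mutated PNA and 2202 with anti-MYCN PNA by its brightest probe set. The source name of the array titled untreated says mutated PNA, while its title and treatment text say untreated. It is called untreated here, and every direction between the 2 controls rests on that label. All 24 probe sets for poly-A spikes were at their lowest on the array of anti-MYCN PNA, with a median ratio to mutated PNA of 0.382, against 1.06 between the controls. The 3′ to 5′ signal ratio of beta-actin was 2.11 untreated, 1.73 with mutated PNA and 1.99 with anti-MYCN PNA. The part of these array-wide differences in the values below was not tested. Of the markers of other cell types, 1 of 9 fibroblast markers (COL3A1), 1 of 7 epithelial (KRT18), none of 4 leukocyte, none of 5 endothelial and 1 of 5 neural markers (TUBB3) had a mean signal above the filter of 117. Of the muscle lineage markers, MYOD1, MYOG, DES, CHRNA1 and CDH15 did, while MYF5 and MYF6 did not.

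Because E-boxes are the sites that MyoD-family dimers bind, the promoter of MYOG and one promoter of MEF2C are shown, as these genes shared the clearest difference between arrays described below. Each line gives the 250 bases before a transcription start in RefSeq on GRCh38.p14, read 5′ to 3′ on the minus strand, with the E-box motif CANNTG in capitals. The MYOG window is chr1:203086013-203086262 and the MEF2C window, 1 of 7 listed for that gene and chosen because it holds CAGCTG, is chr5:88785512-88785761. Another of the 7 holds CAGCTG as well and is not shown.
MYOG: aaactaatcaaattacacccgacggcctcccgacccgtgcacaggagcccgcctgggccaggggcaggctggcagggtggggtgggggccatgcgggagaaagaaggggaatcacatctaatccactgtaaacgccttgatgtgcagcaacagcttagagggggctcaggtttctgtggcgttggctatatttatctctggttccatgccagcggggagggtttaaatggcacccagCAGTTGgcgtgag
MEF2C: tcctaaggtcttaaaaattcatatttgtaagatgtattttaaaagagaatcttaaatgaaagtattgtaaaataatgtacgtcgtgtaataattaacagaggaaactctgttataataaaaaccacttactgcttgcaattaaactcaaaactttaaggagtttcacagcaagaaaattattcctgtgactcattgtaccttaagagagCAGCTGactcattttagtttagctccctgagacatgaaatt
The MYOG motif, CAGTTG, lies 13 to 8 bases before the start, and the MEF2C motif, CAGCTG, 41 to 36 bases before it. A CANNTG motif, found at the same place whichever strand is searched, is held by 61.8% of all 35116 promoter windows of this length. CAGCTG, one form of it, is held by 14.0%. The table matched 9 of the 10 genes, by 17 promoters, of which 7 hold CANNTG. The MEF2 consensus site was searched on both strands as CTAWWWWTAR, where W is A or T and R is A or G. This strict form occurs in 2 of the 17, at MYF6 and at one start of MEF2A, and in 1.75% of all windows. The MYOG window holds ctatatttat, which departs from this form in its last base only and was not counted. None of the 17 holds both a CANNTG motif and a counted MEF2 site, so the 2 kinds could not overlap. These matches describe letters only.

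None of the 18 probe sets was 2-fold apart from both controls on the anti-MYCN PNA array. By the same rule 2.80% of the 9899 single-gene probe sets past the signal filter were, so a count of 0 among the 11 that passed it is near the background. The filter asked for a mean signal of at least 117, which is the median of all gene signals, and signals under 23.4 were set to that value before log2 was taken. The 11 belong to MYOD1, MYOG, MEF2A, MEF2C, PAX3 and FOXO1. The other 7 comprise all probe sets of MYF5, MYF6, MEF2D and PAX7, and 1 each of MEF2A and PAX3. Between single pairs of arrays none of the 11 was 2-fold apart either, where 5.44% of probe sets were between anti-MYCN PNA and mutated PNA, 5.79% between anti-MYCN PNA and untreated and 0.838% between the controls. Even at 1.5-fold none of the 18 was apart from both controls, against 20.1% of all 19064 probe sets and 16.1% of those past the filter.

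**Figure D1:**
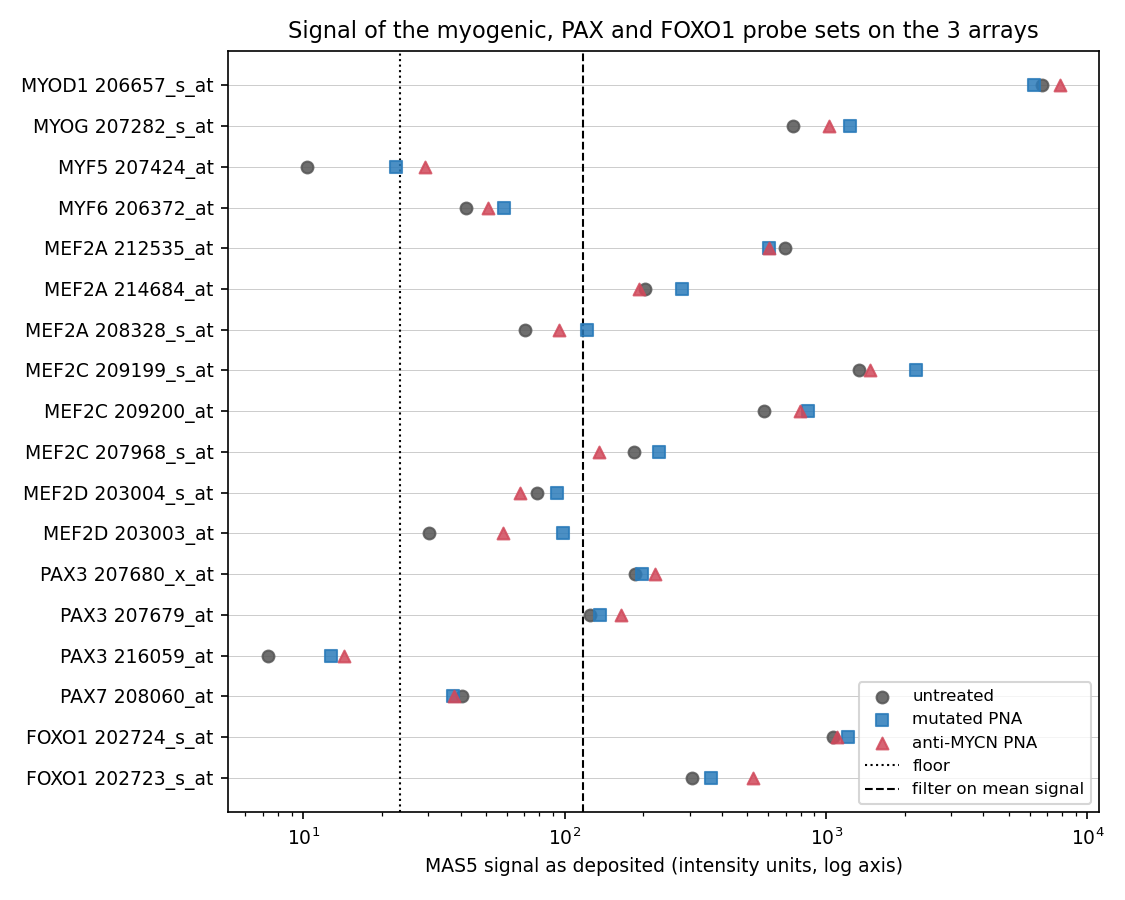
MAS5 signal of the 18 probe sets (rows) on a log axis, with 1 point per array: untreated (circle), mutated PNA (square) and anti-MYCN PNA (triangle). MYOD1 lies between 6266 and 7834, while MYF5 and 1 PAX3 probe set lie at or below the floor of 23.4 on 2 and 3 arrays.

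MYOD1, the factor that commits cells to the muscle lineage and a diagnostic marker of rhabdomyosarcoma, gave a signal of 6715 untreated, 6266 with mutated PNA and 7834 with anti-MYCN PNA. The anti-MYCN PNA array was the highest, 1.17 times untreated and 1.25 times mutated PNA. To judge such sizes, probe sets were put into 10 classes of mean signal, and the control difference of 95% of the probe sets in the class of MYOD1 was within 0.35 (log2). This range comes from the 2 controls alone, and differences to the anti-MYCN PNA array were wider. Past the filter, 5.79% of probe sets were 2-fold apart from untreated on it and 5.44% from mutated PNA, against 0.838% between the controls. Lying outside the range is therefore less unusual for anti-MYCN PNA, and how often it occurred there was not counted. The MYOD1 differences, 0.22 to untreated and 0.32 to mutated PNA, lay inside that range, and with median scaling they were 0.02 and 0.14.

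MYOG, myogenin, which drives terminal differentiation, read 748 untreated, 1238 with mutated PNA and 1024 with anti-MYCN PNA. Untreated was thus the lowest array and mutated PNA the highest, at 1.66 times untreated. The log2 difference of mutated PNA to untreated was 0.73, and 95% of the probe sets of like signal differed by at most 0.42 between these arrays. Anti-MYCN PNA lay 0.45 above untreated, just beyond the same range, and 0.28 below mutated PNA (log2 difference −0.28), inside it. With median scaling these differences were 0.25, inside the range, and −0.45, beyond it. In these single arrays the myogenin signal was higher with mutated PNA than without PNA, and not higher with the anti-MYCN PNA than with the mutated one. Both comparisons share the untreated array. The genes with the most similar pattern, by Euclidean distance over the 3 log2 differences among 6744 genes, were FAT4, KYAT1 and PPIP5K1. Their distances were 0.041, 0.054 and 0.094, over 3 arrays only. All 3 were dim and near the filter of 117. In untreated, mutated PNA and anti-MYCN PNA cells they read 103, 171 and 139, 117, 193 and 164, and 94.0, 160 and 136. At such signals the range of the controls was 0.79 to 1.24, so their differences between the controls lay inside it, unlike that of MYOG.

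The remaining MyoD-family genes were dim. MYF5, an early determination factor, read 10.3, 22.6 and 29.3 in untreated, mutated PNA and anti-MYCN PNA cells, with 2 of these below the floor. MYF6, also called MRF4 and found in maturing fibres, read 42.0, 58.7 and 51.0. Both stayed below the filter on every array, and at the level of MYF6 the controls differed by up to 1.53 in 95% of probe sets. A direction for either gene is not detectable at this signal.

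MEF2C, the MEF2 member best known from skeletal and cardiac muscle, had 3 probe sets, all highest on the mutated PNA array. Its brightest, 209199_s_at, read 1336 untreated, 2216 with mutated PNA and 1474 with anti-MYCN PNA. Mutated PNA was 1.66 times untreated, and lay above untreated by a log2 difference of 0.73 and above anti-MYCN PNA by 0.59 (anti-MYCN PNA minus mutated PNA −0.59), against a range of 0.35 for like signals. The second, 209200_at, read 577, 849 and 793, so that here both PNA arrays lay above untreated, by 0.56 and 0.46 against a range of 0.42, the latter 0.26 and inside the range with median scaling. The dimmest, 207968_s_at, read 185, 230 and 135, which put anti-MYCN PNA lowest, with a log2 difference of −0.77 to mutated PNA inside a range of 0.79. The 3 probe sets thus share the order of the controls and differ in where the anti-MYCN PNA array falls. It lay 0.14 above untreated by the first probe set (−0.06 with median scaling), 0.46 above it by the second and 0.45 below it by the third (log2 difference −0.45).

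MEF2A, a broadly expressed member, was read differently by its probe sets. The brightest, 212535_at, read 698 untreated, 605 with mutated PNA and 606 with anti-MYCN PNA. The second, 214684_at, read 202, 282 and 192, and the dim 208328_s_at read 70.3, 121 and 95.1. Untreated was the highest array for the first and the lowest for the last, and all 3 lay inside the range of the controls. MEF2D, whose splice forms change during muscle differentiation, read 78.3, 93.3 and 67.1 by 203004_s_at and 30.3, 98.5 and 57.8 by 203003_at. The latter difference between the controls, 3.25-fold in signal or 1.70 on the log2 scale, was the widest of the 18 and came from a probe set below the filter, in a class where 95% of probe sets differ by up to 1.53.

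**Figure D2:**
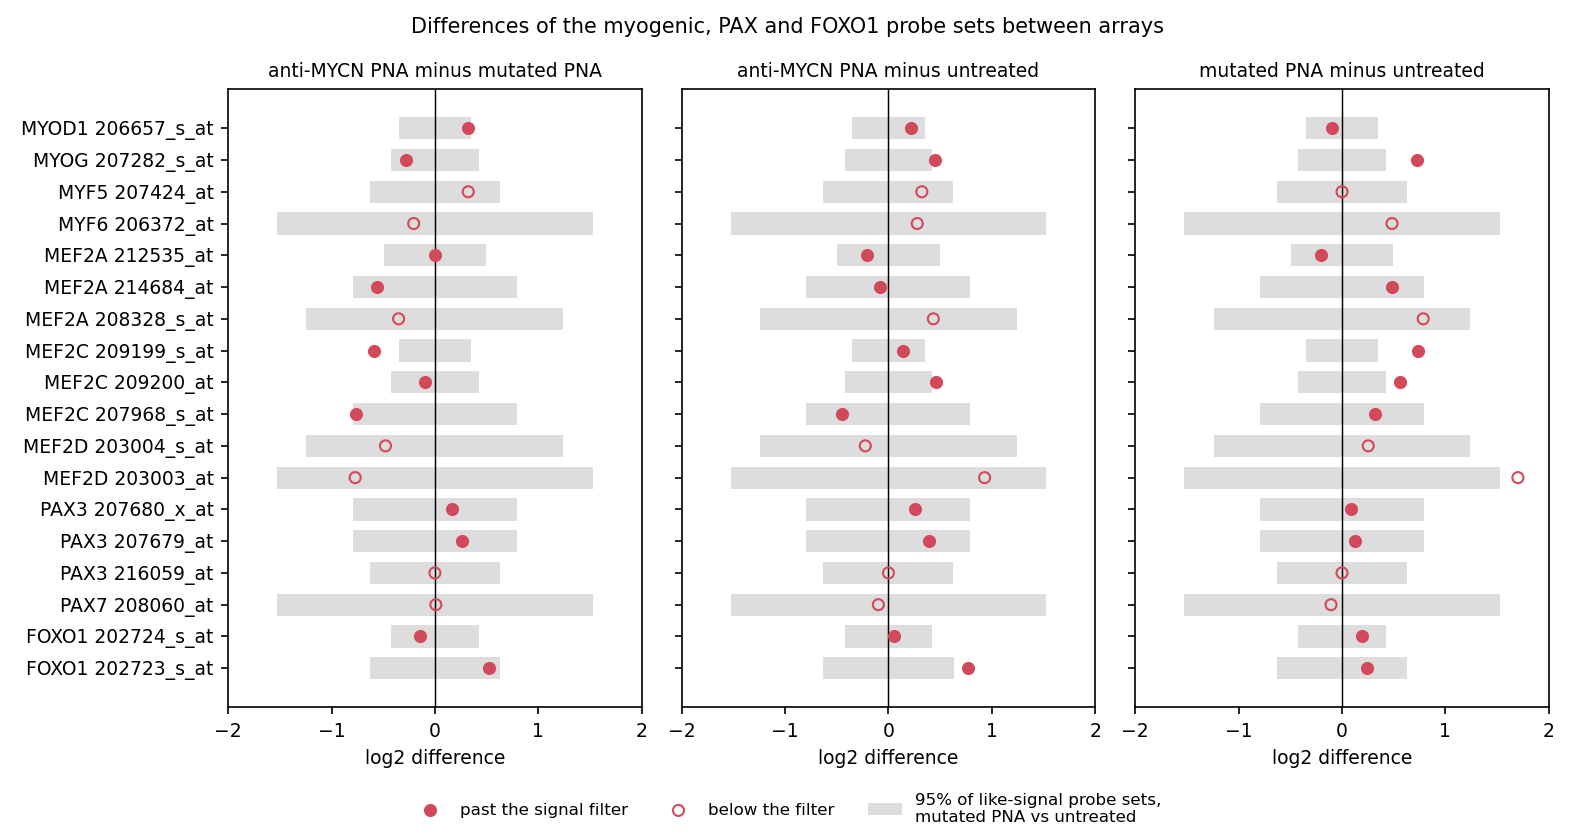
Log2 differences of the 18 probe sets (rows) for anti-MYCN PNA minus mutated PNA, anti-MYCN PNA minus untreated, and mutated PNA minus untreated; filled points passed the signal filter and open points did not. Grey bars span the size within which 95% of like-signal probe sets differed between the 2 controls; in the right panel MYOG, 2 MEF2C probe sets and 1 of MEF2D lie outside their bars, and in the left panel only MEF2C 209199_s_at does.

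The mutated PNA array gave the highest of the 3 signals, as deposited, in 10 of the 18 probe sets, against 26.4% of all single-gene probe sets, and in 6 of the 11 past the filter, against 26.8%. The 6 are MYOG, 3 probe sets of MEF2C and 1 each of MEF2A and FOXO1. The other 4, of MYF6, MEF2A and MEF2D, all lie below the filter, and probe sets of one gene share their target. With quantile normalization it was 11 of 18 against 29.9%, and with median scaling 12 of 18 against 30.3%. Mutated PNA lay above untreated in 15 of the 18 under each scaling, against 51.1% of all as deposited, and in 9 of the 11 past the filter, against 49.3%. The 15 include MYF5 and PAX3 216059_at, whose signals on both of these arrays lie under the floor. The median log2 difference of mutated PNA to untreated over all 18 was 0.25, and 0.00 over all 19064. At 1.5-fold, MYOG and MEF2C 209199_s_at were higher in mutated PNA than in untreated cells among the 11 past the filter and none was lower, where 2.68% and 2.50% of probe sets past the filter were. The order rests on 3 single arrays and on the label of the untreated one.

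Between the 2 PNAs, at matched dose and time, the median over the 18 was −0.12 for anti-MYCN PNA minus mutated PNA, and 0.00 over all 19064. At 1.5-fold, MEF2C 209199_s_at and 207968_s_at were lower with anti-MYCN PNA, 2 of the 11 past the filter against a background of 11.4%, and none was higher against 12.9%. Against untreated the median over the 18 was 0.24, and 0.00 over all 19064. At 1.5-fold FOXO1 202723_s_at alone of the 11 was higher, against 12.6%. Both medians depend on the scaling. Median scaling moved the median of all probe sets past the filter from 0.04 to −0.14 against mutated PNA and from 0.04 to −0.16 against untreated. These 2 comparisons share the anti-MYCN PNA array.

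**Figure D3:**
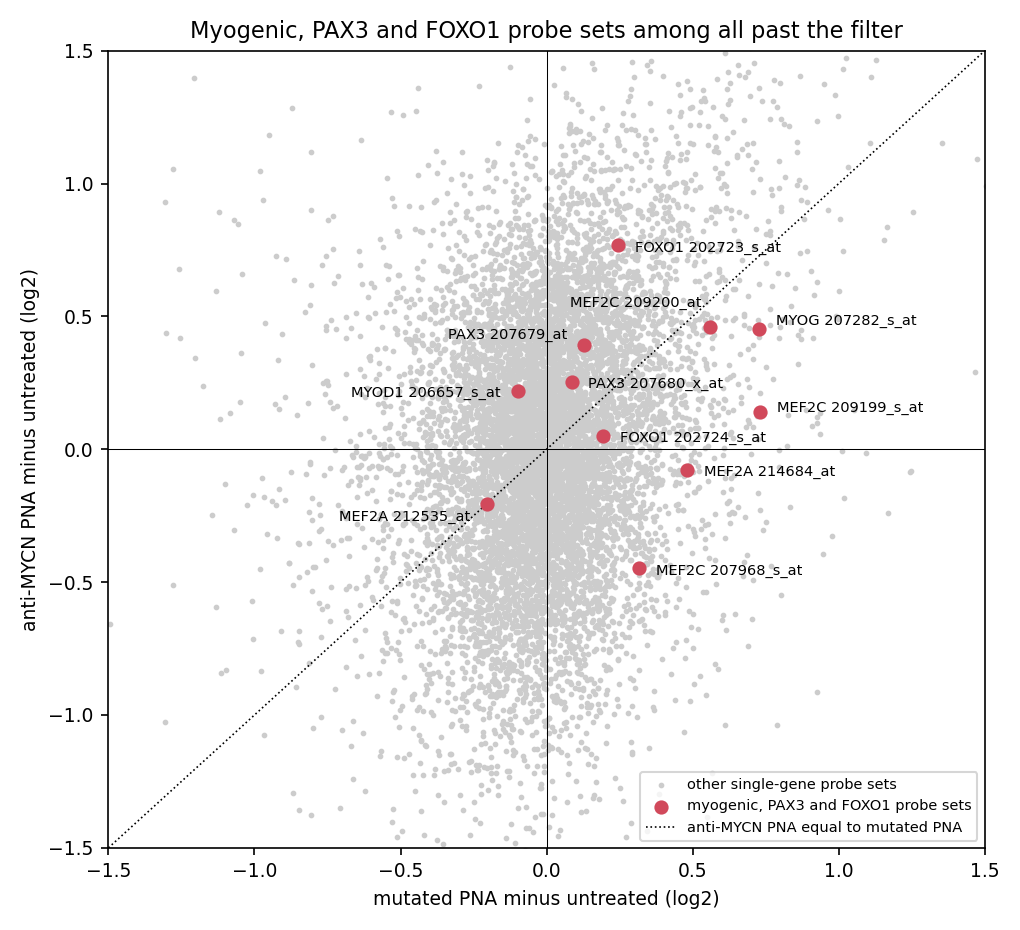
Each point is a single-gene probe set past the signal filter, with mutated PNA minus untreated on the x axis and anti-MYCN PNA minus untreated on the y axis (log2); axes are limited to 1.5 either way, and both share the untreated array. MYOG and 3 MEF2C probe sets lie right of 0 and below the dotted line of equal PNA signals, and FOXO1 202723_s_at, at 0.25 and 0.77, lies above it.

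FOXO1, a forkhead factor restrained by insulin and AKT signalling, had 2 probe sets that did not move alike. The brighter, 202724_s_at, read 1062 untreated, 1214 with mutated PNA and 1101 with anti-MYCN PNA, a spread of 1.14-fold from lowest to highest. The dimmer, 202723_s_at, read 307, 364 and 523, with anti-MYCN PNA highest at 1.71 times untreated and 1.44 times mutated PNA. Its log2 difference to untreated, 0.77, lay outside the range of 0.63 for like signals, and that to mutated PNA, 0.52, inside it. Under median scaling these became 0.57 and 0.35, both inside the range and the former short of 1.5-fold. Whether the 2 probe sets read different transcript ends was not tested.

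PAX3, a paired-box factor of muscle progenitors, was dim by all 3 of its probe sets. The probe set 207680_x_at, whose suffix marks probes that also match other transcripts, read 185 untreated, 197 with mutated PNA and 221 with anti-MYCN PNA. The probe set 207679_at read 125, 136 and 164 in the same order. Anti-MYCN PNA was highest for both, by 0.17 and 0.27 over mutated PNA (for 207680_x_at −0.01 with median scaling), well inside the range of 0.79. The third, 216059_at, read 7.3, 12.7 and 14.3, below the floor on all 3 arrays. PAX7, the paired-box factor of satellite cells, read 40.4, 37.5 and 37.8, below the filter, and its signals spanned 1.08-fold.

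Around these factors, 8 lists of genes were followed, each gene by its brightest probe set past the filter. Of all 6745 genes, 8.23% exceeded both controls by 1.5-fold or more on the anti-MYCN PNA array and 7.41% lay that far below both, with a median log2 difference to the mean of the controls of 0.06. The bHLH partners and inhibitors had 4 of 15 lower, none higher and a median of −0.26. The count lower was 3 with signals as deposited, quantile normalization, a pseudocount or 1 median value per gene, and 5 with median scaling. The E proteins TCF4 and TCF12, which pair with MYOD1 and MYOG on E-boxes, were among the 4. TCF12 read 2114 untreated, 1778 with mutated PNA and 1186 with anti-MYCN PNA. Its log2 difference to mutated PNA, −0.586, only just reached the 1.5-fold rule of 0.585. TCF4 read 1086, 1184 and 709 by its brightest probe set, but of its 7 probe sets past the filter 4 lay below both controls and 1 above both, from −0.62 to 0.58. MDFIC, a relative of the MyoD inhibitor MDFI, read 2607, 2512 and 1543 and was lower by both of its probe sets. The E-box repressor ZEB2 read 267, 327 and 156, whereas the third E protein, TCF3, read 1638, 1558 and 1810.

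The regulators of MEF2 had 4 of 14 at least 1.5-fold higher and 1 lower, with a median of 0.44. MAP2K5 and MAPK7, successive kinases of the ERK5 pathway that phosphorylates MEF2 proteins, read 236, 261 and 490, and 880, 935 and 1564, in untreated, mutated PNA and anti-MYCN PNA cells. CABIN1, which holds MEF2 repressed, read 214, 201 and 363, and CAMK4, a calmodulin-dependent kinase, 118, 83.0 and 186, passing the filter only through the last of these. NCOA2, a coactivator of MEF2C, was 2-fold lower than both at 356, 353 and 166, although a second probe set lay 0.41 above the nearer control. One of the 3 MAP2K5 probe sets was on the other side, by −0.03. The balance of this list turned on the setting: quantile normalization gave 3 higher and 2 lower, median scaling 1 and 2, and the median over the probe sets of each gene 2 and 0.

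Among upstream factors and cofactors 1 of 23 was 1.5-fold higher and none lower, with a median of 0.23, which was 0.07 under quantile normalization and 0.04 under median scaling. That gene, the homeodomain factor PITX1, read 192, 194 and 396 by its brightest probe set. Its other probe set past the filter lay 0.14 above the nearer control, short of 1.5-fold. PITX3, a relative active in myoblasts, read 405, 576 and 831, and the chromatin remodeller SMARCA4 read 2878, 2760 and 4114. All 6 SMARCA4 probe sets lay above both controls, by 0.03 to 0.51 over the nearer one. Other PAX genes had 3 members past the filter, with PAX2, PAX8 and PAX6 above the nearer control by 0.80, 0.45 and 0.37. PAX2 passed the filter through its anti-MYCN PNA signal of 201, against 83.9 and 115.

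FOXO relatives and regulators had none of 8 higher and 1 lower, the deacetylase SIRT1 at 279, 319 and 177, while the kinase AKT1, which keeps FOXO proteins out of the nucleus, read 1157, 974 and 1613, and the exporter XPO1 8553, 9281 and 6209. Known FOXO targets had 1 of 10 higher, the insulin receptor INSR at 131, 135 and 239, and none lower. CCNG2, an atypical cyclin, and CITED2, a transcriptional coregulator, lay below the nearer control by −0.39 and −0.35. The 28 measured PAX3-FOXO1 target genes, a list that contains MYOD1, MYOG and MYCN, had 1 lower, the receptor MET, and none higher, with a median of −0.01. For MET, and likewise for CCNG2, 2 of the 3 probe sets past the filter lay below both controls and none above both. FOXF2 lay 0.55 above the nearer control and GREM1 0.51 below it (log2 difference −0.51).

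Muscle genes downstream of MyoD and MEF2 had 2 of 21 higher than both controls by 1.5-fold or more and none lower. They were CDH15, muscle cadherin, and DES, desmin, the muscle intermediate filament, above the nearer control by 0.94 and 0.80. The other CDH15 probe set past the filter lay 0.50 above the nearer control, short of 1.5-fold. Without _x_at and _s_at probe sets 0 of 13 were that much higher. Against untreated alone 10 of 21 were at least 1.5-fold higher, where 13.1% of all genes were, and against mutated PNA alone 3 of 21, where 13.0% were. With median scaling these counts were 5 of 21 against 6.73% and 3 of 21 against 6.88%. Among the 10, creatine kinase CKM read 188, 295 and 404 and the troponin TNNI2 115, 160 and 231, so that mutated PNA lay between the other arrays. RYR1, the calcium release channel, read 253, 279 and 407. The list's median against the mean of the controls was 0.40, and 0.21 under median scaling.

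**Figure D4:**
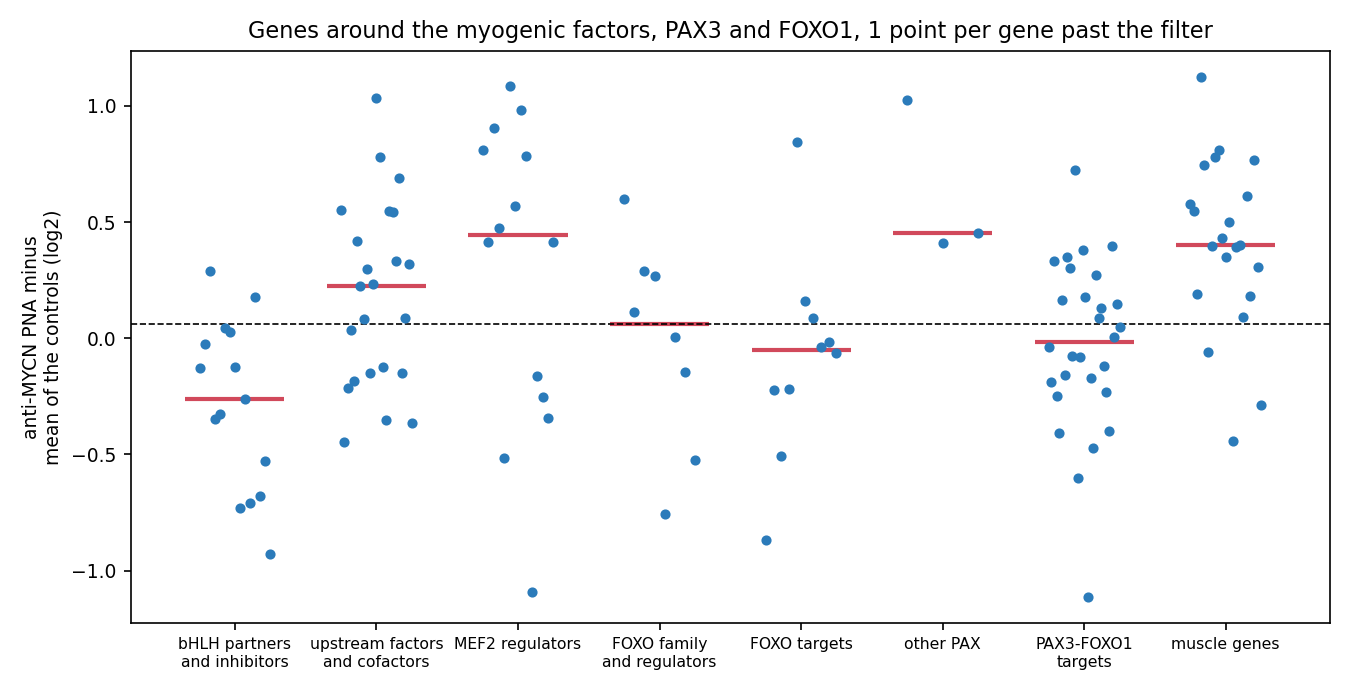
Anti-MYCN PNA minus the mean of the 2 controls (log2), 1 point per gene past the filter, in 8 lists of genes around the myogenic factors, PAX3 and FOXO1; red bars are list medians and the dashed line is the median of all 6745 genes, 0.06. The bHLH partners and inhibitors have the lowest median, −0.26, and the MEF2 regulators, the other PAX genes and the muscle genes lie highest, at 0.44, 0.45 and 0.40. Under median scaling these last medians were 0.26, 0.26 and 0.21, and the other PAX list holds only 3 genes.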

How the data were processed

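Total RNA of RH30 cells was hybridised to Affymetrix arrays, 1 per condition. The authors deposited 1 signal intensity per probe set, on a linear scale; the submitters' processing notes name MAS5 and GCOS, whose versions are not given in the sources used here. Gene names came from a platform annotation of GEO, updated by Entrez identifier through RefSeq (GRCh38.p14): of 22215 gene probe sets 19064 named 1 gene, 1043 several and 2108 none. Each array was scaled to a common 2% trimmed mean, floored at the pooled 25th percentile (23.4) and filtered on mean signal at the pooled 50th percentile (117). Signals and signal ratios are printed as deposited; log2 differences are from scaled values. The rule for calls was tested on simulated data. Other scalings, filters, floors, thresholds and probe set choices were tried. Named were all probe sets of the 10 genes, up to 3 genes per list by the smaller difference to the controls, and the 3 genes nearest to MYOG. TCF12, TCF3, MAPK7, CAMK4, CKM, TNNI2, COL3A1, KRT18, TUBB3, CHRNA1, HDAC5 and MEOX1 were chosen after their values were seen. The genes and lists were chosen with earlier results of these data known. Scripts ran in Python 3.11.15 with numpy 2.4.6, pandas 2.3.3 and matplotlib 3.10.9.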

Additional observations from a re-analysis of the deposited data

How the results depend on the processing

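The count of the 11 probe sets 2-fold apart was 0 in each of the 4 comparisons. It stayed 0 with signals as deposited, quantile normalization and median scaling. Other settings gave 0 but could not have raised the count, because they kept fewer probe sets, asked for more or did not widen the differences. These were a pseudocount, no floor, a 3-fold threshold and a stricter filter (75th percentile, 6 probe sets). The choice without _x_at and _s_at probe sets (4 probe sets) and 1 median value per gene (6 genes) were also of this kind. Without a filter, over all 18, the count was 1 for mutated PNA against untreated (MEF2D 203003_at). At 1.5-fold it was 2 for anti-MYCN PNA against mutated PNA, 1 for anti-MYCN PNA against untreated and 2 for mutated PNA against untreated. Over the single-gene probe sets past the filter, those at least 2-fold higher and lower than both controls numbered 115 and 162. At the same 2-fold rule they were 76 and 219 with quantile normalization, 27 and 355 with median scaling and 62 and 116 with a pseudocount. Without a filter they were 949 and 384, and with the filter at the 75th percentile 14 and 40. Median scaling brought the median difference of anti-MYCN PNA to mutated PNA over the probe sets past the filter from 0.04 to −0.14. Of the 54 differences of the 18 probe sets, 6 changed sign under a scaling or floor, none larger than 0.28 in the main setting. Differences that the floor set to 0 could not count as a change of sign. Such were anti-MYCN PNA minus untreated for PAX3 216059_at, 0.97 without a floor, and mutated PNA minus untreated for MYF5, 1.13 without a floor. The median of the bHLH partners stayed below 0 in every setting, from −0.45 to −0.12, and that of MEF2 regulators above 0, from 0.16 to 0.45. No paired analysis was possible because each condition had 1 array. The number of arrays limits the precision.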

Other observations

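Among the genes around the myogenic factors, 3 whose mutated PNA signal was the lowest or highest of the 3 arrays were picked out after their values were seen. HDAC5, a class IIa deacetylase that represses MEF2 proteins, read 316 untreated, 128 with mutated PNA and 427 with anti-MYCN PNA. CCNG2, the atypical cyclin among FOXO targets, read 1278, 2461 and 973. MEOX1, a homeobox factor of the early somite, read 673, 393 and 545. Each value is from 1 array, and the direction against untreated rests on the label of that array.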
